A study of Bos taurus with 9 samples.

Results

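LEF1, TCF7, THEMIS and GIMAP5 were taken here together as naive T-cell genes, which is a name for the set, as none of them is restricted to naive T cells. CD3G, which encodes the gamma chain of CD3 in the T-cell receptor, is a gene of T cells in general. These 5 genes, of 24616 Ensembl genes in the deposited table, were taken by identifier. The first 4 were listed by the study as lower in super-shedders (SS) than in non-shedders (NS), on the same steers as here, and CD3G was not in that list. The difference of the 4 genes between SS and NS is therefore no independent evidence of its direction, and the choice also bears on their difference from CD3G. The question asked of the data was whether the naive T-cell genes differed between SS and NS by more than CD3G did.

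RNA-Seq libraries were made from whole rectal tissue of 9 British x Continental feedlot steers, each giving 1 library. The SS group held steers 274, 287, 294, 299 and 310. They had shed more than 4 log10 CFU of E. coli O157:H7 per g of feces when they were identified, although not all of them did so at slaughter. The NS were steers 108, 152, 165 and 242, pen-mates that tested negative for E. coli O157:H7. From each steer 2 biopsies of 2 cm2, taken at 3 to 5 cm from the rectal-anal junction (RAJ) on its proximal side, were frozen, and 100 mg of powdered tissue was used for RNA. The values are counts scaled to the library total (CPM), and the reads behind them were recovered from the table. The libraries held 12278503, 10437925, 10655374 and 8580654 reads on genes in NS 108, 152, 165 and 242, and 5412523, 11807195, 7492386, 7101669 and 11521214 in SS 274, 287, 294, 299 and 310. Neither the age of the steers nor a sequencing batch was stated in the labels or the methods.

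Naive T cells have left the thymus and have not yet met their antigen. They recirculate between blood and lymphoid tissue, and in the gut they are found mainly in organised lymphoid follicles, whereas T cells of the lamina propria and the epithelium are mostly antigen-experienced. LEF1 and TCF7 are related DNA-binding factors of the Wnt pathway that act in T-cell development and are high in naive and memory precursor T cells. THEMIS is an adaptor of T-cell receptor signalling needed for selection in the thymus, and GIMAP5 is a GTPase-like protein needed for the survival of naive lymphocytes. CD3G is kept by T cells after activation. None of these genes is restricted to naive T cells, and LEF1 and TCF7 can also be expressed by other cells.

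All 5 genes had their highest value in NS 242 and their lowest in SS 294. LEF1 (ENSBTAG00000006844, UMD3.1 chromosome 6, bases 18335030 to 18450774, its gene span) was at 12.9, 9.20, 11.4 and 182 CPM in NS 108, 152, 165 and 242. In SS 274, 287, 294, 299 and 310 it was at 7.21, 4.23, 2.00, 8.59 and 4.51 CPM. Every SS was below every NS, with SS 299 and NS 152 closest to each other. The group values were 54.0 ± 85.6 CPM in NS and 5.31 ± 2.60 CPM in SS (mean ± SD, n = 4 and 5).

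TCF7 (ENSBTAG00000001002, UMD3.1 chromosome 7, bases 47352222 to 47385009), the partner of LEF1 in the same family of factors, was at 22.6, 13.3, 16.5 and 142 CPM in NS 108, 152, 165 and 242. In SS 274, 287, 294, 299 and 310 it was at 10.5, 11.1, 3.07, 18.3 and 8.51 CPM. SS 299 lay above NS 152 and 165, so the groups overlapped through 1 steer. The group values were 48.6 ± 62.3 CPM in NS and 10.3 ± 5.48 CPM in SS (mean ± SD, n = 4 and 5).

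THEMIS (ENSBTAG00000015615, UMD3.1 chromosome 9, bases 66683789 to 66885925) was at 9.04, 6.04, 6.66 and 88.3 CPM in NS 108, 152, 165 and 242. In SS 274, 287, 294, 299 and 310 it was at 4.25, 6.18, 1.47, 8.31 and 8.16 CPM. SS 287, 299 and 310 fell inside the NS range, and THEMIS was the naive T-cell gene with the most overlap. The group values were 27.5 ± 40.6 CPM in NS and 5.67 ± 2.88 CPM in SS (mean ± SD, n = 4 and 5).

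GIMAP5 (ENSBTAG00000004894, UMD3.1 chromosome 4, bases 114127187 to 114137744) was at 18.4, 14.4, 14.4 and 109 CPM in NS 108, 152, 165 and 242. In SS 274, 287, 294, 299 and 310 it was at 5.91, 10.4, 1.74, 11.8 and 13.3 CPM. Every SS was below every NS, with 13.3 CPM in SS 310 against 14.4 CPM in NS 165 at the narrowest point. The group values were 39.0 ± 46.6 CPM in NS and 8.63 ± 4.74 CPM in SS (mean ± SD, n = 4 and 5). GIMAP genes are a family of related genes, and in the RefSeq annotation of ARS-UCD2.0 GIMAP5 has GIMAP2, GIMAP1 and GIMAP6 as neighbours on chromosome 4, so reads shared with a related copy could have been divided by the counting.

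CD3G (ENSBTAG00000006453) was at 22.3, 19.5, 24.6 and 107 CPM in NS 108, 152, 165 and 242. In SS 274, 287, 294, 299 and 310 it was at 14.4, 28.9, 2.67, 17.3 and 19.96 CPM. SS 287 was above every NS other than 242, and SS 310 was above NS 152. The group values were 43.2 ± 42.2 CPM in NS and 16.6 ± 9.51 CPM in SS (mean ± SD, n = 4 and 5).

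The low values in SS 294 rest on few reads. There LEF1 had 15 reads, TCF7 23, THEMIS 11, GIMAP5 13 and CD3G 20. The exact Poisson interval (95%) for LEF1 in this steer was 1.12 to 3.30 CPM and that for CD3G was 1.63 to 4.12 CPM, which covers counting error only. In NS 242 the same genes had 1565, 1218, 758, 934 and 914 reads.

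**Figure D1:**
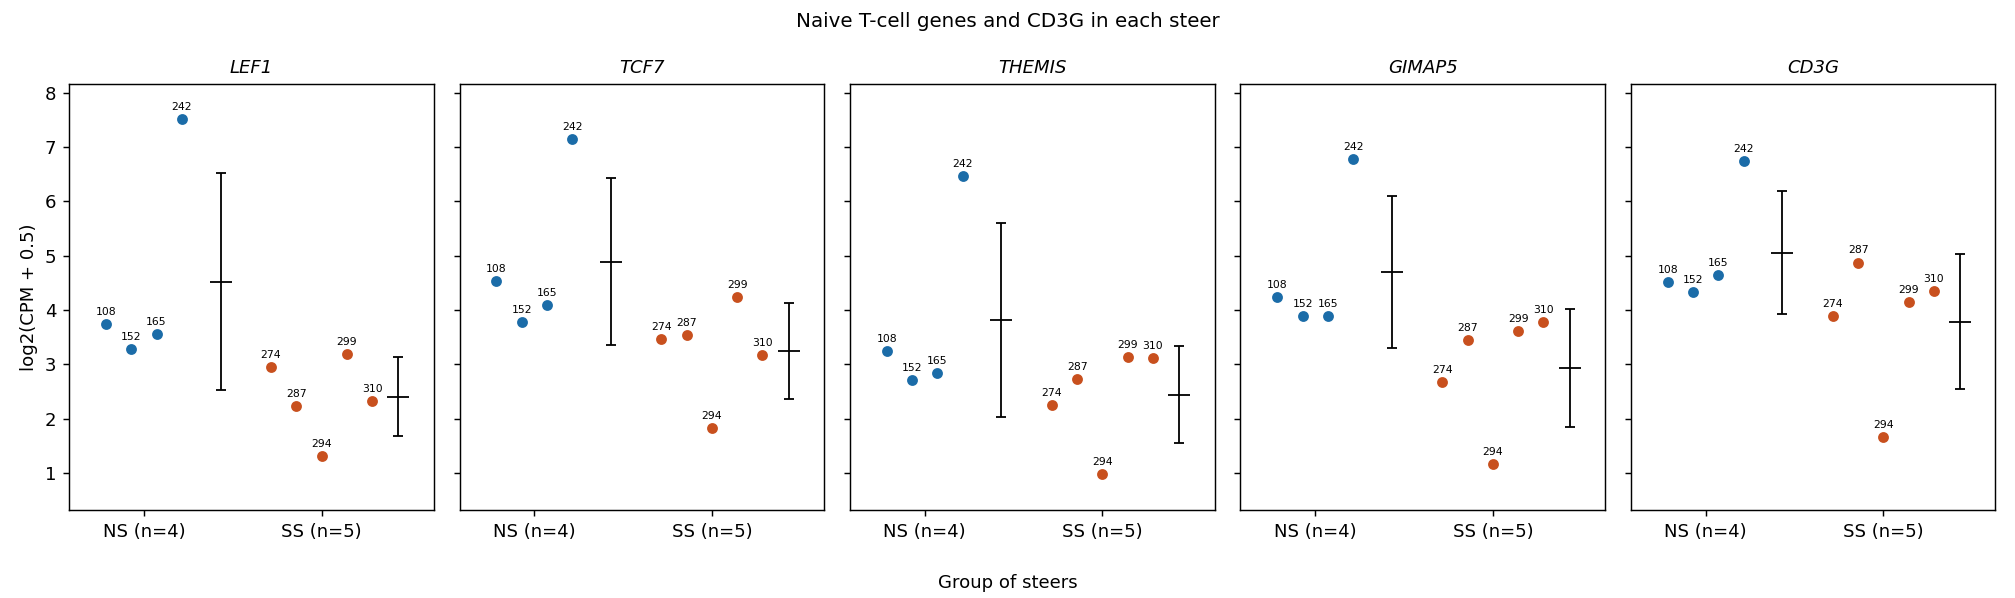
Each point is 1 steer, with its number, and the vertical axis is log2(CPM + 0.5) of the gene named above the panel. Horizontal marks are group means and bars are SD (NS n = 4, SS n = 5). NS 242 is the highest and SS 294 the lowest point in each panel, and SS lie below all NS for LEF1 and GIMAP5 but not for TCF7, THEMIS or CD3G.

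On the log2(CPM + 0.5) scale, the difference of SS from NS was -2.12 for LEF1 (standard error 0.83), -1.76 for GIMAP5 (0.72), -1.64 for TCF7 (0.71), -1.38 for THEMIS (0.80) and -1.27 for CD3G (0.70). CD3G thus had the smallest difference of the 5 genes, but each of these differences lies within 1 standard error of its neighbour in that order. In limma, fitted over the 15410 genes that reached 0.5 CPM in 4 steers or more, the adjusted p was 0.928 for each gene. A gene was called where the adjusted p was below 0.05 and the log2 difference exceeded 1 in size, which held for none of the 5 genes and for 0% of all genes tested. LEF1, TCF7 and GIMAP5 had an unadjusted p below 0.05 and were lower in SS, as were 3.6% of all genes, while 0.357% were higher in SS at that threshold. This imbalance depended on the scaling and the test. Of the genes with an unadjusted p below 0.05, 555 of 610 were lower in SS with CPM, against 267 of 459 with median-of-ratios scaling, 307 of 469 with TMM scaling, 357 of 597 in edgeR and 400 of 897 in DESeq2. The unadjusted p of TCF7 moved from 0.0446 to 0.0530 with median-of-ratios and 0.0517 with TMM scaling. With each of the 9 steers left out in turn it was below 0.05 in 6 of 9 fits for LEF1 and GIMAP5 and in 3 of 9 for TCF7, with a highest unadjusted p in limma of 0.0610, 0.0995 and 0.109. With limma arrayWeights it was above 0.05 for all 3, and in edgeR it was below 0.05 for these 3 and for THEMIS (0.0338). Groups were fully apart, with every SS below every NS, for 2 of the 4 naive T-cell genes and for 2.1% of all genes. Nothing is read from these counts, since the study chose the 4 genes on the same contrast. All 5 genes passed the filter on low values. The exact permutation test (both sides, 126 divisions of the steers, smallest possible p = 0.0159) gave p = 0.0159 for LEF1 and GIMAP5, 0.0476 for TCF7, 0.19 for THEMIS and 0.159 for CD3G. In bulk tissue, fewer T cells in a biopsy and less RNA of these genes per cell cannot be told apart.

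Single steers carried much of each difference. NS 242 held 84.5% of the summed NS values of LEF1, 80.3% of THEMIS, 73.0% of TCF7, 69.8% of GIMAP5 and 61.6% of CD3G. It stood above the median of the other NS by a factor of 16.1 for LEF1, 13.3 for THEMIS, 8.59 for TCF7, 7.57 for GIMAP5 and 4.77 for CD3G, so all 4 naive T-cell genes exceeded CD3G in that steer. In SS 294, the lowest steer, the order was another one: the median of the other SS was 6.98 times the value of SS 294 for CD3G, 6.41 times for GIMAP5, 4.88 times for THEMIS, 3.52 times for TCF7 and 2.93 times for LEF1. Without NS 242 the log2 difference of SS from NS was -1.12 for LEF1, -1.07 for GIMAP5, -0.89 for TCF7, -0.71 for CD3G and -0.49 for THEMIS. THEMIS then differed less than CD3G. Without SS 294 it was -1.85 for LEF1, -1.32 for GIMAP5, -1.29 for TCF7, -1.01 for THEMIS and -0.74 for CD3G, so CD3G moved about as far as without NS 242. With both 242 and 294 left out, an alternative chosen after seeing the data, the differences were -0.85 for LEF1, -0.63 for GIMAP5, -0.54 for TCF7, -0.17 for CD3G and -0.12 for THEMIS. With the steers weighted by limma arrayWeights they were -1.05 for LEF1, -0.71 for GIMAP5, -0.66 for TCF7, -0.56 for CD3G and -0.22 for THEMIS.

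The comparison with CD3G was then made within each steer, as the CPM of the gene divided by the CPM of CD3G. Such a ratio is not a ratio of transcripts, because the genes differ in length, and it is compared across steers only. For LEF1 the ratio was 0.577, 0.471, 0.462 and 1.71 in NS 108, 152, 165 and 242, and 0.5, 0.147, 0.750, 0.496 and 0.226 in SS 274, 287, 294, 299 and 310. SS 287 and 310 were below every NS, but SS 274, 294 and 299 fell inside the NS range, and SS 294, with the least LEF1, had the highest ratio of the SS. The ratio was 0.805 ± 0.607 in NS and 0.424 ± 0.242 in SS (mean ± SD, n = 4 and 5).

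For TCF7 the ratio to CD3G was 1.01, 0.681, 0.672 and 1.33 in NS 108, 152, 165 and 242, and 0.731, 0.384, 1.15, 1.06 and 0.426 in SS 274, 287, 294, 299 and 310. The same steers, 287 and 310, were below every NS. The ratio was 0.925 ± 0.315 in NS and 0.750 ± 0.351 in SS (mean ± SD, n = 4 and 5). For THEMIS it was 0.405, 0.309, 0.271 and 0.829 in NS 108, 152, 165 and 242, and 0.295, 0.214, 0.550, 0.480 and 0.409 in SS 274, 287, 294, 299 and 310. SS 287 alone was below every NS for THEMIS, and SS 294, 299 and 310 were above all NS other than 242.

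For GIMAP5 the ratio to CD3G was 0.825, 0.735, 0.584 and 1.02 in NS 108, 152, 165 and 242, and 0.410, 0.361, 0.650, 0.683 and 0.665 in SS 274, 287, 294, 299 and 310. SS 274 and 287 were below every NS, and the other SS were above NS 165 and below NS 152. The ratio was 0.791 ± 0.183 in NS and 0.554 ± 0.155 in SS (mean ± SD, n = 4 and 5), the narrowest spread within groups, relative to the mean, of the 4 genes. SS 287 had the lowest ratio of all steers for each of the 4 genes, and it is also the SS with the most CD3G.

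**Figure D2:**
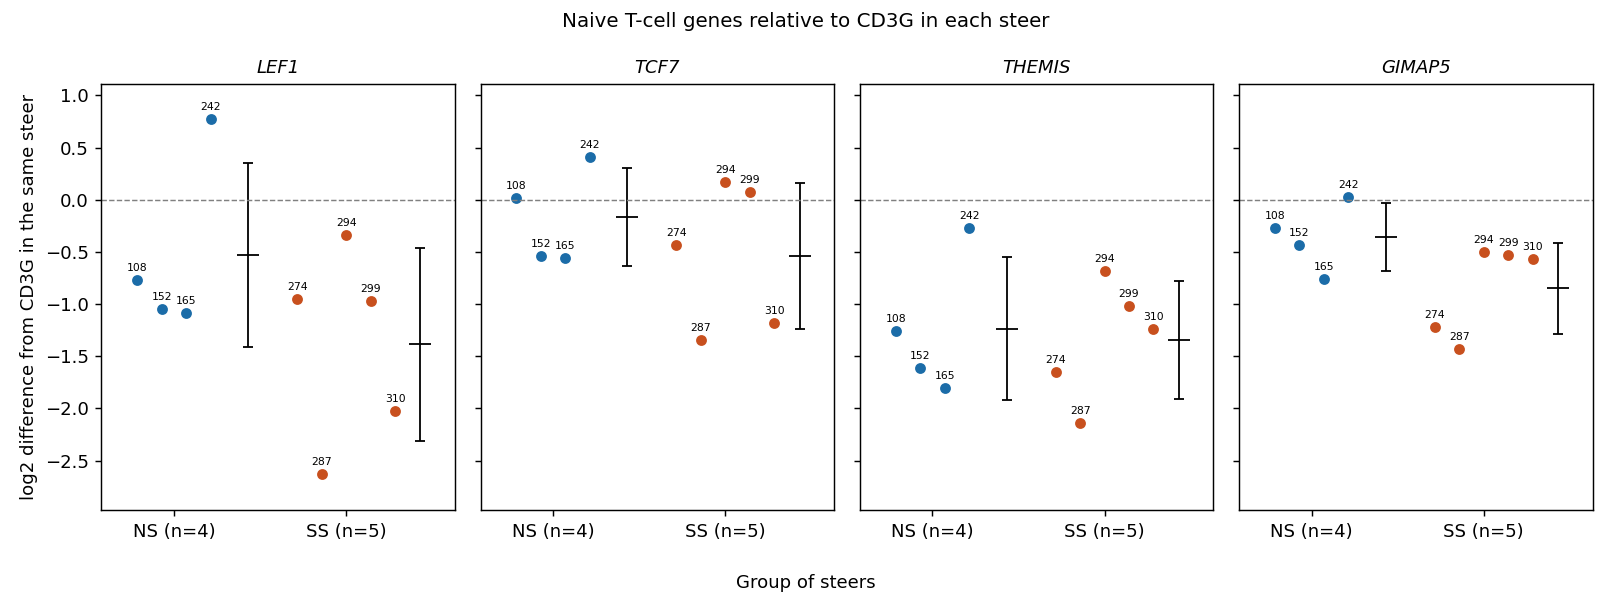
Each point is 1 steer, with its number, and the vertical axis is the log2(CPM + 0.5) of the gene named above the panel minus that of CD3G in the same steer. Horizontal marks are group means, bars are SD (NS n = 4, SS n = 5) and the dashed line marks a difference of 0. The groups overlap for all 4 genes, and SS 287 is the lowest point in each panel.

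Tested as a log2 difference from CD3G, all 4 naive T-cell genes had a negative difference of SS from NS, and none was distinguishable from 0. It was -0.85 for LEF1, -0.49 for GIMAP5, -0.38 for TCF7 and -0.11 for THEMIS. The exact permutation test (both sides) gave p = 0.254 for LEF1, 0.111 for GIMAP5, 0.381 for TCF7 and 0.794 for THEMIS. From each gene's own variance, the 95% intervals were -2.29 to 0.58 for LEF1, -1.12 to 0.13 for GIMAP5, -1.35 to 0.59 for TCF7 and -1.09 to 0.87 for THEMIS. These intervals hold both no difference and an excess of more than 1 on the log2 scale, so an excess over CD3G was neither shown nor bounded closely with 9 steers. Without SS 294, where CD3G is lowest, the difference from CD3G was larger for all 4 genes, at -1.11 for LEF1, -0.58 for GIMAP5, -0.55 for TCF7 and -0.27 for THEMIS, with an adjusted p in limma of 0.696 to 0.781. Without SS 287, where the ratios are lowest, it was smaller in size for all 4, at -0.54 for LEF1, -0.35 for GIMAP5, -0.18 for TCF7 and 0.09 for THEMIS. The direction for THEMIS was not stable, as it was 0.21 without NS 242, 0.09 without SS 287, 0.05 without 242 and 294, and 0.36 with limma arrayWeights. For LEF1 it was -0.42 without NS 242 and -0.43 with arrayWeights, and for LEF1, TCF7 and GIMAP5 no alternative tried with CD3G as the reference turned the direction. For GIMAP5 and TCF7 it was -0.16 and -0.10 with arrayWeights, and -0.36 and -0.18 without NS 242. In edgeR, which compares mean counts of the groups, the direct differences lay further apart, at -3.15 for LEF1, -2.09 for THEMIS, -2.06 for TCF7, -2.001 for GIMAP5 and -1.19 for CD3G, and DESeq2 gave -3.13, -2.08, -2.04, -1.99 and -1.18 in that order. DESeq2 gave no p for these direct differences of the 4 naive T-cell genes, though it gave one for CD3G, so its values for the 4 stand without a test. The difference from CD3G was not tested in these 2 fits.

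In the limma fit over all genes relative to CD3G, the adjusted p was 0.437 for LEF1, 0.627 for GIMAP5, 0.709 for TCF7 and 0.916 for THEMIS. The spread of CD3G enters every gene of this fit, and its moderated 95% intervals were wider, from -2.63 to 0.92 for LEF1 and from -2.25 to 1.27 for GIMAP5. None of the 4 genes was called, against 0.00649% of the 15409 genes tested, and none had an unadjusted p below 0.05, against 0.0389% of genes lower and 4.08% higher in SS relative to CD3G. For none of the 4 was every SS below every NS, against 0.104% of genes. The median difference over all genes was 1.14 relative to CD3G and -0.13 without a reference, as the difference of CD3G, -1.27, is subtracted from that of every gene. Relative to CD3G, 2.25% of genes had a difference below 0, and 55 genes lay below LEF1, 107 below GIMAP5, 142 below TCF7 and 274 below THEMIS. Nothing is read from these places, since the study listed the 4 genes as lower in SS on the same steers and did not list CD3G. The 1 gene called, ENSBTAG00000021565, has no symbol in the sources used here and was named after its values were seen. It was not called without NS 242, without steers 242 and 294, with each gene's own variance or with PTPRC as the reference, each of which called 0 genes. It was at 13.7 CPM in NS 108, listed at 0 in the other NS, and at 9.86 to 32.2 CPM in SS.

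Other genes of lymphocyte recirculation gave mixed values. Of 12 genes listed, 3 had a symbol in the sources used here, and symbols exist there only for abundant genes and for genes the study called, 2052 in all. CCR7, the receptor that guides naive lymphocytes into lymphoid tissue, was at 14.2, 8.72, 13.7 and 160 CPM in NS 108, 152, 165 and 242, and at 2.59, 5.84, 0.400, 3.66 and 4.77 CPM in SS 274, 287, 294, 299 and 310. Its ratio to CD3G was 0.635, 0.446, 0.557 and 1.51 in these NS and 0.179, 0.202, 0.15, 0.211 and 0.239 in these SS. All SS thus lay below all NS for CCR7 also relative to CD3G, with a log2 difference of -1.57 (own standard error 0.34, exact permutation test, p = 0.0159). Groups were fully apart in this way for 0.104% of all genes relative to CD3G and for 2.1% without a reference. Relative to CD3G this also held for IL2RA, CORO1A and B-cell genes such as MS4A1, so it was not particular to CCR7. In the limma fit relative to CD3G the moderated 95% interval of CCR7 was -3.36 to 0.21, with an adjusted p of 0.404, and the adjusted p was 0.928 without a reference. The value in SS 294 rests on 3 reads of CCR7, and CCR7 too was listed by the study on these steers.

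ETS1, a transcription factor of lymphocytes and endothelium, averaged 191 ± 165 CPM in NS against 82.9 ± 16.6 CPM in SS (mean ± SD, n = 4 and 5), a log2 difference of -0.91. It was -0.41 without NS 242, the omission of steers for genes other than the members being chosen after seeing the data. Relative to CD3G its difference was 0.36 (exact permutation test, p = 0.619), and -0.07 without SS 294. FOXP1, a factor of naive T-cell quiescence that many tissues express, averaged 176 ± 31.1 CPM in NS against 168 ± 59.0 CPM in SS. It did not share the order of the steers, with its highest value, 242 CPM, in SS 294.

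Of 6 other GIMAP genes listed, 3 had a symbol, and all 3 had a negative difference of SS from NS, as did 64.8% of all genes. GIMAP7 was at 68.3, 77.9, 76.7 and 362 CPM in NS 108, 152, 165 and 242 and at 49.5, 51.3, 9.21, 60.5 and 57.9 CPM in SS 274, 287, 294, 299 and 310. Every SS was below every NS for GIMAP7, as for 2.1% of all genes. GIMAP4 averaged 166 ± 152 CPM in NS against 56.4 ± 35.9 CPM in SS, and GIMAP8 at 184 ± 159 and 74.2 ± 45.6 CPM (mean ± SD, n = 4 and 5), with overlap of the groups for both. The log2 difference was -1.68 for GIMAP4, -1.51 for GIMAP7 and -1.32 for GIMAP8, and relative to CD3G it was -0.41, -0.24 and -0.06. Without NS 242 the direct differences were -1.15, -0.94 and -0.82, and without SS 294 they were -1.004, -1.01 and -0.80. Relative to CD3G the direction of GIMAP8 turned without NS 152 (0.09) and without SS 287 (0.18). GIMAP4 relative to CD3G ranged from -0.59 (without SS 299) to -0.27 (without SS 294). GIMAP7 ranged from -0.31 (without SS 299) to -0.07 (without SS 287). The exact permutation test of the difference from CD3G gave p = 0.222 for GIMAP4, 0.302 for GIMAP7 and 0.889 for GIMAP8.

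For the partners of the members few genes could be named. Of 12 cofactors and targets of TCF and LEF factors only CTNNB1 (beta-catenin) had a symbol, with 567 ± 111 CPM in NS and 515 ± 88.5 CPM in SS. Of 5 partners of THEMIS, GRB2 and PTPN11 had one, with log2 differences of -0.46 and -0.02, the latter 0.16 without SS 287. None of 19 genes of the T-cell receptor complex, coreceptors and proximal signalling had a symbol in the sources used here. CD3G was thus the only gene of the receptor complex examined, and no other chain was matched to an identifier to check it.

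Among genes of other T-cell states, 3 of 17 listed for effector, cytotoxic and tissue-resident T cells had a symbol. CCL5, a chemokine of cytotoxic cells, averaged 24.2 ± 5.90 CPM in NS against 22.0 ± 15.6 CPM in SS (mean ± SD, n = 4 and 5), a log2 difference of -0.66 that turned to 0.08 without SS 294. It was highest in SS 287, at 38.8 CPM, and lowest in SS 294, at 1.47 CPM, where the median of the other SS was 18.7 times as high. CD69, an early activation and tissue residence marker, had a log2 difference of -1.65 (-1.02 without NS 242 and -1.01 without SS 294) and was also lowest in SS 294. ID2 had one of -0.07 (0.07 without SS 274) and was highest in SS 294. NS 242 exceeded the median of the other NS by a factor of 5.53 for CD69, 1.33 for CCL5 and 1.12 for ID2, beside the 16.1 of LEF1. IL2RA was the only gene of 6 with a symbol in the list of regulatory T cells, and is also a gene of activated T cells. All SS lay below all NS for IL2RA, as for 2.1% of all genes, with a log2 difference of -2.59. Relative to CD3G the difference was -1.33 for IL2RA, -0.38 for CD69, 0.60 for CCL5 and 1.20 for ID2. IL2RA had every SS below every NS there too, against 0.104% of genes, with an adjusted p in limma of 0.404. Beside these, LEF1 was at -0.85 and TCF7 at -0.38 relative to CD3G, and no difference between the genes was tested. IL2RA and CD69 were also listed by the study on these steers.

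All 5 genes listed for leukocytes in general, which T cells express too, were lower in SS by their log2 difference, as were 64.8% of all genes. In 3 of them every SS was below every NS, against 2.1% of all genes, and their median was -1.46 (-0.99 without NS 242 and -1.05 without SS 294). None of the 5 was called. Their summed level was 1140, 867, 929 and 4048 CPM in NS 108, 152, 165 and 242 and 728, 818, 225, 820 and 697 CPM in SS 274, 287, 294, 299 and 310. The most abundant, PTPRC (CD45), averaged 540 ± 536 CPM in NS against 222 ± 88.5 CPM in SS, with a log2 difference of -1.01 (-0.43 without NS 242 and -0.67 without SS 294). CORO1A, an actin regulator of leukocytes, had a log2 difference of -1.82. Relative to CD3G, 3 of the 5 leukocyte genes had a negative and 2 a positive difference, with a median of -0.19. It was -0.55 for CORO1A, -0.29 for CD53, -0.19 for LCP1, 0.25 for LAPTM5 and 0.26 for PTPRC. With 1 steer left out it shrank to -0.16 for CD53 (without NS 108) and -0.0073 for LCP1 (without SS 287). Without SS 294 it was 0.0068 for LAPTM5 and 0.07 for PTPRC. The exact permutation test of the difference from CD3G gave p = 0.0159 for CORO1A, 0.238 for CD53, 0.556 for LCP1 and LAPTM5 and 0.46 for PTPRC, and the adjusted p of CORO1A in the limma fit relative to CD3G was 0.584. NS 242 and SS 294 were thus also the highest and lowest steers for the leukocyte genes as a whole, and the part of the leukocyte content in the differences of the members was not tested.

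B-cell genes had larger log2 differences than the naive T-cell genes, which was not tested as a difference between lists. Of 9 listed, 5 had a symbol, all 5 had an unadjusted p below 0.05 in limma, and 3 had every SS below every NS. Of all genes, 3.6% were lower at that threshold and 2.1% were fully apart, and with median-of-ratios scaling 267 genes were lower at it, against 555 with CPM. The median log2 difference of the 5 was -3.03, against -1.70 for the 4 naive T-cell genes. Without NS 242 these medians were -2.34 and -0.98, and without SS 294 they were -2.64 and -1.30. Relative to CD3G, with all steers, the medians were -1.76 and -0.43. The summed level of the B-cell genes was 159, 62.0, 105 and 517 CPM in NS 108, 152, 165 and 242 and 38.6, 30.1, 4.00, 29.9 and 16.1 CPM in SS 274, 287, 294, 299 and 310. The most abundant, MS4A1 (CD20), ranged from 31.3 to 206 CPM in NS and from 0.801 to 14.6 CPM in SS, and no B-cell gene was at 0 in any steer. FCRLA, a B-cell protein, had a log2 difference of -3.12 and CD79B, a chain of the B-cell receptor, one of -3.03. All 5 of these B-cell genes were listed by the study on these steers, and their part in the differences of the members was not tested. LAMP3, a gene of mature dendritic cells and the only 1 of 6 with a symbol, had all SS below all NS, with a log2 difference of -1.52 (-0.88 without NS 242), and was listed by the study as well. None of 5 genes listed for NK cells had a symbol.

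Genes of the other tissue layers differed widely between the biopsies. The 5 epithelial genes with a symbol, of 9, summed to 2571, 2830, 2430 and 299 CPM in NS 108, 152, 165 and 242 and to 394, 3082, 36.3, 1346 and 3152 CPM in SS 274, 287, 294, 299 and 310, with EPCAM the most abundant. NS 242 and SS 294, at the opposite ends for the naive T-cell genes, were both low in epithelial genes. The median log2 difference of the epithelial genes was -1.10, with 0.0072 without SS 294 and -1.95 without NS 242. The 6 smooth muscle genes summed to 9422, 9612, 14140.5 and 2493 CPM in NS 108, 152, 165 and 242 and to 306, 1705, 48230, 24634 and 4044 CPM in SS 274, 287, 294, 299 and 310, with MYH11 the most abundant. SS 294 was thus the biopsy with the most smooth muscle RNA and the least RNA of the 5 T-cell genes. The median log2 difference of the smooth muscle genes was -0.79, with 0.21 without SS 274 and -1.67 without SS 294. Of 6 fibroblast genes, 5 had a symbol, and their median log2 difference was 0.38, with COL1A2 the most abundant. The median was -0.12 for 4 of 7 macrophage genes, -0.86 for 2 of 6 plasma cell genes, -2.71 for 3 of 5 neutrophil genes, of which S100A12 was the most abundant and highest in NS 152, and 0.11 for PECAM1, 1 of 6 endothelial genes. The 3 neutrophil genes, S100A8, S100A9 and S100A12, were listed by the study as lower in SS on these steers. With 1 steer left out, the median of the neutrophil genes was -1.38 without NS 152. That of the plasma cell genes was -0.31 without SS 274 and -0.30 without SS 294. The direction turned for macrophages without NS 242 (0.28) and SS 294 (0.06), for fibroblasts without SS 274 (-0.14), and for PECAM1 without SS 274 (-0.12) and SS 294 (-0.21). None of the genes in these lists was called, and the part of the tissue layers in the differences of the members was not tested.

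The members varied together over the 9 steers. Pearson's r of log2(CPM + 0.5) was 0.98 for LEF1 with TCF7 (Spearman's rho 0.90) and 0.97 for THEMIS with GIMAP5 (rho 0.77). With CD3G it was 0.95 for GIMAP5, 0.92 for THEMIS, 0.91 for TCF7 and 0.84 for LEF1 (rho 0.67, 0.65, 0.60 and 0.53). Without steers 242 and 294, the farthest from the median, r over 7 steers was 0.85 for LEF1 with TCF7 and 0.82 for THEMIS with GIMAP5, but 0.20 for LEF1 with THEMIS. With CD3G it was then 0.52 for GIMAP5, 0.33 for THEMIS, 0.13 for TCF7 and -0.13 for LEF1, so the relation of LEF1 and TCF7 to CD3G rested on these 2 steers. All points share the tissue makeup of their biopsy, and r is given as a description.

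The genes most like the mean log2 value of the 4 naive T-cell genes, among tested genes with a symbol, were LAMP3 (r = 0.99), TRAF3IP3 (0.99), SH2D1A (0.98), SASH3 (0.98), CRLF3 (0.98), PTPRC (0.98), SP140 (0.97), LAPTM5 (0.97), SEMA7A (0.97) and CD48 (0.97), over 9 steers. LAMP3, TRAF3IP3, SH2D1A, SASH3 and SEMA7A were listed by the study on these steers, as the members were. SH2D1A and SASH3 are adaptors of lymphocyte signalling, and PTPRC and LAPTM5 are genes of leukocytes in general. Without steers 242 and 294, r was 0.95 for SASH3, 0.88 for TRAF3IP3 and 0.85 for LAMP3, but 0.44 for CRLF3 and 0.58 for LAPTM5. CD3G was in place 42 among the genes with a symbol (r = 0.92), and 2.52% of all genes had an r above 0.9.

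Among tested genes with a symbol, those most like CD3G over 9 steers were RAC2 (r = 0.99), CD69 (0.98), STK17A (0.97), CORO1A (0.97) and GIMAP7 (0.97). Next came VCAM1 (0.97), CD53 (0.97), GIMAP4 (0.97), FAIM3 (0.97) and SIT1 (0.96). RAC2 is a GTPase of blood cells, and SIT1 is an adaptor that dampens T-cell receptor signalling. Without steers 242 and 294, r was 0.92 for RAC2 and 0.84 for SIT1, but 0.22 for GIMAP7. GIMAP5, in place 18 of the genes with a symbol, was the naive T-cell gene most like CD3G, and LEF1, in place 112, the least. No gene was among the first 10 for both.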

How the data were processed

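RNA-Seq of rectal tissue from 5 SS and 4 NS was analysed, with groups and steer numbers taken from the sample labels. The authors deposited CPM per Ensembl gene from stranded, rRNA-depleted libraries mapped to UMD3.1 with TopHat2. HTSeq and edgeR are named in the submitters' processing notes without a role. In every library 100% of the CPM were whole multiples of 1 read (tolerance 0.01 reads), so reads were recovered for edgeR and DESeq2, and 1 read was worth 0.0814 to 0.185 CPM. limma (eBayes with trend) was run on log2(CPM + 0.5), which understates the change of low genes, for genes that reached 0.5 CPM in 4 steers or more, and p-values were adjusted over all genes by Benjamini-Hochberg. A second limma fit subtracted the log2 value of CD3G in the same steer. Exact permutation tests covered all 126 divisions of the steers, and the p on both sides is double the smaller tail. This convention replaced a count of absolute differences, with a lower smallest p, after the first values had been seen, which raised some p and lowered others and changed no call. The libraries came from separate animals, and no pair of libraries within a group agreed within sampling noise.

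The members and lists were chosen with earlier results of these data known. The genes named are the 5 members, every gene with a symbol in the lists of the T-cell receptor complex, of naive and recirculating lymphocytes and of the GIMAP family, the most abundant gene and up to 3 with the largest absolute log2 difference of each other list, and the 10 genes with a symbol most correlated with the mean of the 4 naive T-cell genes and with CD3G. Symbols came from the study's supplements (2052 identifiers). Alternatives covered pseudocount, filter, scaling, count tests, steer weights, the reference gene and the omission of steers. Tools were R 4.3.3, limma 3.58.1, edgeR 4.0.16, DESeq2 1.42.0, matplotlib 3.10.9, scipy 1.17.1, pandas 2.3.3, numpy 2.4.6 and Python 3.11.15.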

Additional observations from a re-analysis of the deposited data

Results flagged for a closer look

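NS 242 stood far above the other NS for several members. Its gap to the next NS, divided by the whole range of NS on the log2(CPM + 0.5) scale, was 0.891 for LEF1, 0.855 for THEMIS, 0.879 for GIMAP5 and 0.866 for CD3G, above Dixon's 95% critical value of 0.829 for 4 samples. For LEF1 relative to CD3G, this share was 0.833, also in NS 242. Of 18 groups of values examined, 5 passed, and chance passes about 1 in 20. The 5 are not separate events, since they come from the same library.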

How the results depend on the processing

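Of 159 values of single genes under the alternatives, 155 kept their direction and their side of the threshold. The other 4 were all THEMIS relative to CD3G, at 0.36 with limma arrayWeights and 0.0499 without steers 242 and 294, and from -0.30 to 0.21 with 1 steer left out, with positive values without NS 242 and without SS 287. The cause was not tested. The direct differences ranged from -3.15 to -0.85 for LEF1, -2.06 to -0.54 for TCF7, -2.09 to -0.12 for THEMIS, -2.03 to -0.63 for GIMAP5 and -1.54 to -0.17 for CD3G. The weakest value of each was that without steers 242 and 294, an alternative chosen after seeing the data. The adjusted p ranged from 0.597 to 0.9996 for LEF1, TCF7, GIMAP5 and CD3G. With edgeR the difference was -3.15 for LEF1, -2.06 for TCF7, -2.09 for THEMIS, -2.001 for GIMAP5 and -1.19 for CD3G. DESeq2 gave no p for LEF1, TCF7, THEMIS and GIMAP5, so for these 4 of the 155 values the direction alone was compared. Median-of-ratios scaling moved the median difference of all genes from -0.13 to 0.0082 and that of CD3G to -1.12.

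The number of genes called between SS and NS was 0 in limma (610 at an unadjusted p below 0.05), 0 in edgeR (597) and 19 in DESeq2 (897). It was 2 with arrayWeights, CXCL13 and a gene without a symbol, and 0 to 1 with 1 steer left out, with 1 gene without NS 108 and 1 without SS 299. Relative to CD3G, 1 gene was called, against 12 with arrayWeights, 2 with no filter, 0 with PTPRC as the reference, 0 with each gene's own variance and 0 without steers 242 and 294, the last pair chosen after seeing the data, and 0 to 1 with 1 steer left out (0 without NS 242). With PTPRC as the reference the difference was -1.11 for LEF1, -0.75 for GIMAP5, -0.64 for TCF7 and -0.37 for THEMIS. The reference of CD3D, CD3E and CD247 was not run, as no symbol was matched. No paired analysis was possible because the groups share no steer numbers. Few reads, 11 to 23 for each member, limit the values of SS 294, although its library was larger than those of SS 274 and 299, and groups of 4 and 5 steers cannot give an exact p below 0.0159.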
